A study of Mus musculus with 12 samples.

Results

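Serine and one-carbon metabolism in the superior mesenteric ganglion (SMG) was followed through 8 genes: Phgdh, Psat1, Psph, Shmt1, Shmt2, Mthfd1, Mthfd2 and Mthfd1l. They were chosen by symbol as the enzymes that make serine, split it into glycine and carry its carbon on folate, and they were 8 of the 32289 genes counted. ScRNA-seq had been performed on the SMG of 12 mice of the 129+Ter/SvJcl strain, with 1 library per mouse: 1 wild-type mouse at 3 weeks of age, 10 Th-MYCN+/- mice at 3 weeks and 1 Th-MYCN+/- mouse at 6 weeks. Th-MYCN+/- mice are hemizygous for a human MYCN transgene (H-MYCN) driven by the rat tyrosine hydroxylase promoter, so that the transgene is aimed at sympathetic neural cells, and not every hemizygote goes on to a tumor. The 6-week-old mouse had been picked because a tumor was visible at dissection. With 1 mouse each, the wild-type and 6-week groups carry no replicate error, and all tests were made between or within cell classes of the 10 Th-MYCN+/- mice of 3 weeks, numbered 1 to 10 in the labels.

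Serine synthesis branches off glycolysis. Phgdh oxidizes 3-phosphoglycerate, Psat1 transfers an amino group to the product and Psph removes the phosphate to leave serine. Serine hydroxymethyltransferase then moves a carbon unit of serine to tetrahydrofolate and leaves glycine, with Shmt1 in the cytosol and Shmt2 in mitochondria. Mthfd1 in the cytosol, and Mthfd2 and Mthfd1l in mitochondria, interconvert the folate-bound carbon units, which feed purine and thymidylate synthesis. In the nervous system, glia are known to be a main site of serine synthesis, and MYC proteins and Atf4 are known regulators of several of these genes.

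The libraries held 1147772 to 6388766 unique molecular identifiers (UMIs, counts of distinct captured transcripts), and 11958 cells were kept. Libraries shared 92 cell barcodes, where 88.9 were expected from random draws. Cells were clustered without the 8 genes and grouped by markers into neuroblast-like (3006), Schwann-like (2921), ganglion-like (2662, sympathetic neurons) and endothelial-like (510) classes, with smaller immune and mesenchymal classes and 2267 unnamed cells. Of the unnamed cells, 2240 formed 1 shallow cluster with a median of 495 UMIs. The median depth in the 10 mice was 4378 UMIs in neuroblast-like, 1162 in ganglion-like, 971 in Schwann-like and 1168 in endothelial-like cells. Mouse 2 stood apart: 1471 of its 1775 cells were ganglion-like, 39 were neuroblast-like and 9 were Schwann-like, and an estimated 71.5% of the UMIs in its neuroblast-like cells were free RNA, against 2.97 to 10.5% in the other 9 mice. In the wild-type mouse, 21 cells with a median of 304 UMIs fell into the neuroblast-like class, but they held 0 UMIs of the neuroblast markers Dlk1, Cartpt and Isl1 and of H-MYCN, so they were left out. H-MYCN itself was at 0 in the wild-type mouse, and in the 10 mice it averaged 317 ± 153 CPM (UMIs of the gene per 1e6 UMIs summed over a mouse and class) in neuroblast-like cells (SD, n = 10) against 2.26 CPM in ganglion-like cells.

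The promoters shown first are those of Phgdh, Psph and Shmt1, the genes with 1 class whose range over the 10 mice lay above that of each of the other 3 classes. The share of all genes with such a class was not counted, so this rule only picks which promoters are shown. Phgdh and Psph rose and fell together across classes (Pearson's r = 0.85 on log2 CPM over 44 sums of a mouse and a class, a description with no test), and Shmt1 did not follow Phgdh (r = -0.28). Each sequence is RefSeq's, on build GRCm38.p6, runs from 250 bases before to 50 after the annotated start in the direction of transcription, and has in capitals the letters CCAAT or GGGCGG on either strand, so that ATTGG and CCGCCC are the same boxes read on the other strand.
Phgdh promoter, chr3:98339920-98340219, minus strand: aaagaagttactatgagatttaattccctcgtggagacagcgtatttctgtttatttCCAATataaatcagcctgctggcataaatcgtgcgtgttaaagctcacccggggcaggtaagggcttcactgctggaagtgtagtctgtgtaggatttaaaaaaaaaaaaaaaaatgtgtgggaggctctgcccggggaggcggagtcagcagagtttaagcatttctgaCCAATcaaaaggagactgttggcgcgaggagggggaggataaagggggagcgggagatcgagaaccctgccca
Psph promoter, chr5:129787204-129787503, minus strand: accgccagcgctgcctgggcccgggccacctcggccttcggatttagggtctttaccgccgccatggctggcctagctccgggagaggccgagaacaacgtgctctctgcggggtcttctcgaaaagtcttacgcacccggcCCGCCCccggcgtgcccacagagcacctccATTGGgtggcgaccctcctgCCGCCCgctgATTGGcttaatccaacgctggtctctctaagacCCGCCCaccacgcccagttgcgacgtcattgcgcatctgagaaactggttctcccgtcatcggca
Shmt1 promoter, chr11:60811216-60811515, minus strand: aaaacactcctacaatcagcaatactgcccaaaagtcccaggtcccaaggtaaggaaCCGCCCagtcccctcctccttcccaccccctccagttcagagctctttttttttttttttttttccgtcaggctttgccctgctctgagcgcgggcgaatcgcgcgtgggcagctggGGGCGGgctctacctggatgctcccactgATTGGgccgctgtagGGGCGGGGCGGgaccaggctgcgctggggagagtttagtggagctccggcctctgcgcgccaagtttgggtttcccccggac
The Phgdh window held 2 CCAAT boxes and no GGGCGG. Psph held 2 CCAAT boxes and 3 GGGCGG, and Shmt1 held 1 CCAAT box and 4 GGGCGG, of which the last 2 overlap by 1 base. CCAAT occurred in 37.4% and GGGCGG in 35.7% of 32851 promoter windows of this length, so each is common. CACGTG, the E-box bound by MYC proteins, occurred in 7.15% of windows, and TGATGNAA, a composite site of Atf4, in 3.97%. Neither was present in any of the 9 windows of the 8 genes (Psat1 has 2 annotated starts), which says only that these letters are not in these windows.

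By their GRCm38 positions, Phgdh lies at chr3:98313170-98339990, Psat1 at chr19:15904678-15947337 and Psph at chr5:129765558-129787449, all on the minus strand. Shmt1 lies at chr11:60788104-60811718, Shmt2 at chr10:127517123-127522444 and Mthfd2 at chr6:83305691-83325908, also on the minus strand. Mthfd1 lies at chr12:76255298-76319803 and Mthfd1l at chr10:3973118-4167081, on the plus strand. No counted gene overlapped any of them on the same strand. On the opposite strand Psph overlapped Cct6a, Shmt1 overlapped Smcr8, Shmt2 overlapped Ndufa4l2 and Mthfd1 overlapped Gm47525 and Gm34868. The paralog Mthfd2l was counted as a gene of its own.

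Classes this different separate most genes. In edgeR's quasi-likelihood test, FDR 0.05 was passed by 66.2% of the genes tested between neuroblast-like and ganglion-like cells, 68.5% between neuroblast-like and Schwann-like, 70.7% between ganglion-like and Schwann-like and 64.3% between neuroblast-like and endothelial-like cells. The levels below are read against this background, and they are compared across classes only, never between genes. Whether ranges over mice overlap is a description, and the share of all genes without overlap was not counted.

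Phgdh, the entry enzyme of serine synthesis, was highest in Schwann-like cells. Its lowest, median and highest level over the 10 mice was 663, 835 and 1773 CPM in Schwann-like cells (913 ± 317, SD, n = 10). Ganglion-like cells ran from 15.0 through 30.9 to 99.9 CPM (39.7 ± 26.7), neuroblast-like cells from 2.86 through 8.55 to 70.3 (13.6 ± 20.1), and endothelial-like cells from 0 to 27.8. Every mouse therefore had more Phgdh in its Schwann-like cells than any mouse had in another class, while the ranges of the other 3 classes overlapped. The highest Schwann-like and the highest neuroblast-like value both came from mouse 2, where they rested on 9 and 2 UMIs. Without that mouse the Schwann-like mean was 817 ± 100 and the neuroblast-like mean 7.33 ± 3.20 CPM (SD, n = 9). The neuroblast-like range was then 2.86 to 11.1 CPM and no longer overlapped the ganglion-like range of 15.0 to 99.9 CPM.

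To show what this means per cell, each cell was thinned to 500 UMIs. Phgdh was then found in 33.4% of 1826 Schwann-like cells (exact binomial 95% interval 31.2 to 35.6%), in 1.58% of 2020 ganglion-like cells and in 0.413% of 2662 neuroblast-like cells. A UMI of it was found in 0 of 301 endothelial-like cells. A count of 0 there leaves room for up to 0.997% (3 counts of the total) of cells with a UMI at this depth and sets no limit on cells that express the gene. Before thinning the shares were 50.8%, 6.06%, 2.90% and 0.962% at the median depths given above. Intervals and limits of this kind cover counting error only.

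Psph, which carries out the last step, was also highest in Schwann-like cells. It ranged over 131, 208 and 394 CPM (lowest, median, highest) in Schwann-like cells (230 ± 72), over 25.1, 34.8 and 70.3 CPM in neuroblast-like cells (37.2 ± 12.6), and over 9.24, 28.7 and 71.6 CPM in ganglion-like cells (36.3 ± 19.4). Endothelial-like cells held 32.3 ± 21.0 CPM. The Schwann-like range lay above the other 3, which all overlapped one another.

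Psat1, the middle enzyme, had another pattern. Its Schwann-like values were 101, 128 and 197 CPM (134 ± 29), and its neuroblast-like values were 70.6, 92.2 and 162 CPM (99.96 ± 30.8). Ganglion-like cells had 0, 7.77 and 27.3 CPM (10.0 ± 7.5), on 63 UMIs in all, and endothelial-like cells averaged 21.1 ± 22.9 on 9 UMIs. Psat1 was thus the member of the serine synthesis steps that was also high in neuroblast-like cells: every neuroblast-like value stood above the highest ganglion-like and endothelial-like value, and the neuroblast-like and Schwann-like ranges overlapped.

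Shmt1, the cytosolic enzyme that splits serine, was almost confined to neuroblast-like cells among the 4 classes. There it ran over 33.1, 60.7 and 83.6 CPM (56.2 ± 15.7). In ganglion-like cells 9 of 10 mice were at 0, and all 3 UMIs came from mouse 2 (1.48 CPM). Schwann-like cells held 6 UMIs in all, at 0 to 10.1 CPM, and endothelial-like cells 1 UMI. The neuroblast-like range did not overlap that of any other class.

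Shmt2, the mitochondrial counterpart, was low in every class. The medians were 16.2 CPM in neuroblast-like, 12.99 in ganglion-like, 19.9 in Schwann-like and 0 in endothelial-like cells. All 4 ranges overlapped. Its mean in Schwann-like cells, 61.0 ± 118, was set by mouse 2 with 394 CPM from 2 UMIs, and without that mouse it was 24.0 ± 16.3 (SD, n = 9).

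Mthfd2, the mitochondrial dehydrogenase of the folate branch, was highest in the neural classes. Neuroblast-like cells had 35.2, 130 and 363 CPM (141 ± 86) and ganglion-like cells 55.4, 90.3 and 153 CPM (92.6 ± 27.2). Schwann-like cells had 0, 47.2 and 99.3 CPM (48.0 ± 27.6), and endothelial-like cells held only 2 UMIs, in 2 of the 10 mice (2.10 CPM on average). The neuroblast-like, ganglion-like and Schwann-like ranges overlapped, and both neural classes lay above every endothelial-like value. Mthfd1, the cytosolic enzyme, averaged 13.5 ± 6.0 CPM in neuroblast-like, 12.4 in Schwann-like, 6.82 in endothelial-like and 5.49 in ganglion-like cells, and all its ranges overlapped. Mthfd1l, the mitochondrial formate enzyme, averaged 19.6 ± 12.5 in ganglion-like, 12.8 ± 8.0 in neuroblast-like, 5.64 in endothelial-like and 3.603 in Schwann-like cells, again with overlap throughout.

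**Figure D1:**
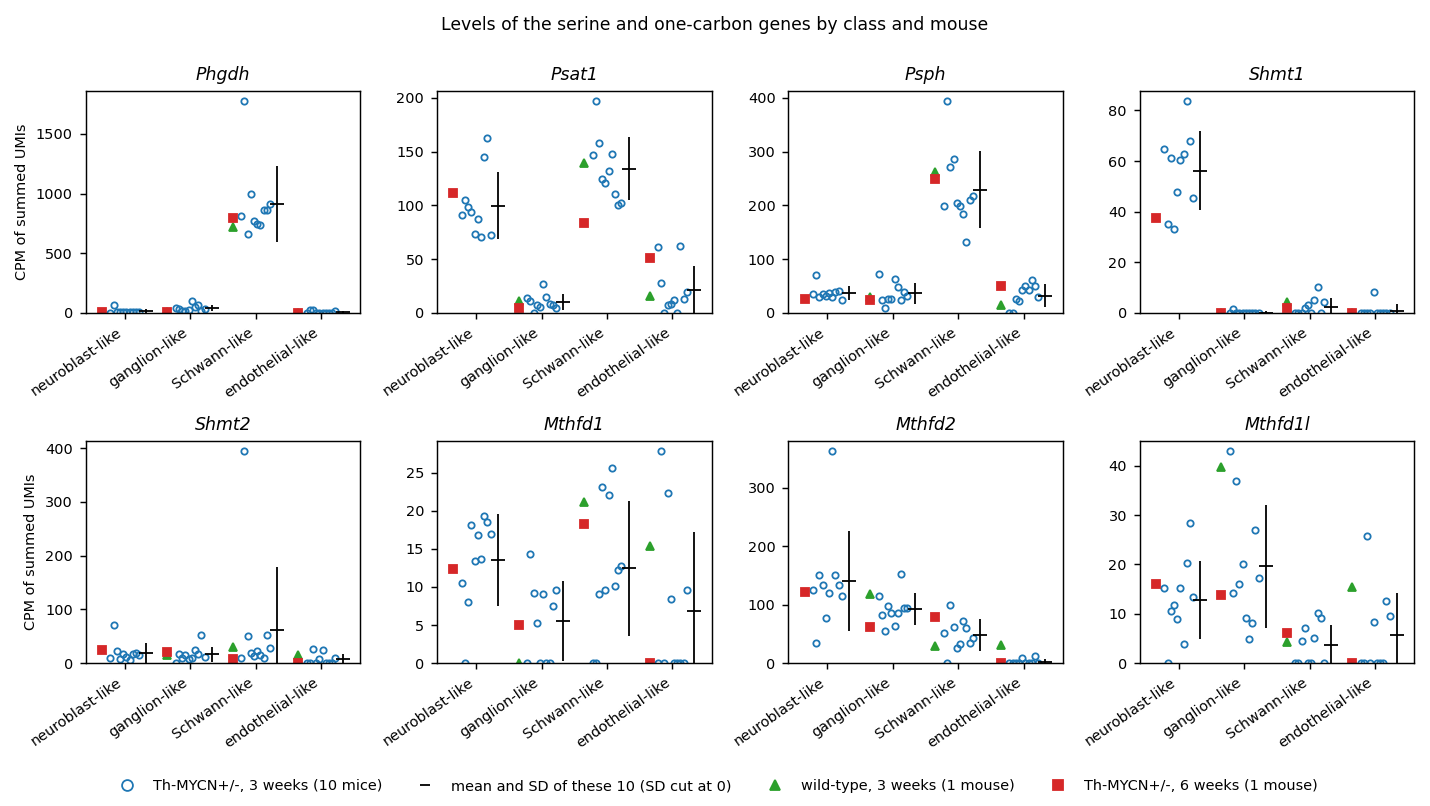
Level of each gene by cell class, in CPM of the UMIs summed per mouse and class. Open circles are the 10 Th-MYCN+/- mice of 3 weeks, with their mean and SD beside them (SD cut at 0), triangles the wild-type mouse and squares the 6-week-old mouse. Phgdh and Psph stand up in Schwann-like cells, Shmt1 in neuroblast-like cells, and Psat1 in both. The Schwann-like Phgdh point at 1773 CPM is mouse 2.

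Next, the classes were compared in pairs within the same mice, with the quasi-likelihood test of edgeR on summed UMIs, the mouse as a block and Benjamini-Hochberg adjustment over all genes that passed a filter on low counts. Of 7172 genes tested between neuroblast-like and ganglion-like cells, 34.8% were higher and 31.5% lower in neuroblast-like cells. Among the 8 genes, 7 passed the filter, 3 were higher in neuroblast-like cells and 1 was lower. A share of this size is no larger than the background, so it is the size and sign of each gene that is described. Psat1 was higher by 3.56 on the log2 scale (SE 0.26, FDR 3.4e-10) in 10 of 10 mice. Shmt1 was higher in 10 of 10 mice (FDR 7.8e-11). Both passed the filter through neuroblast-like cells alone, so a call could hardly go the other way. Since ganglion-like cells held only 3 UMIs of Shmt1, its size is better given by the pooled counts, 772 against 3 UMIs and a ratio of 148 per UMI sequenced (exact 95% interval 50.5 to 720, counting error only). Mthfd2 was higher by 0.57 (SE 0.21, FDR 0.0248) in 8 of 10 mice. Phgdh fell by 2.00 (SE 0.38, FDR 9.5e-05) and was lower in neuroblast-like cells in 9 of 10 mice. Apart from mouse 2 it passed the filter through ganglion-like cells, so here too a call could hardly go the other way. Psph (0.05, FDR 0.84), Shmt2 (-0.17, FDR 0.68) and Mthfd1l (-0.40, FDR 0.18) did not pass, and Mthfd1 was not testable.

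The Mthfd2 and Phgdh differences between the neural classes need to be read with other measurements. For Mthfd2, 120 of the 185 UMIs in the neuroblast-like cells of mouse 7 came from 1 cell, and without that mouse the difference was 0.40 (FDR 0.0762). It was 0.49 (FDR 0.0529) without mouse 3, and 0.72 (FDR 0.0912) with free RNA subtracted. With UMIs per gene and cell capped at the 99th percentile of the class, an alternative chosen after seeing the data, it was 0.35 (FDR 0.0335), where 72.3% of 7233 genes passed, 36.4% higher and 35.9% lower. For Phgdh, the 12 Schwann markers summed to 1962 to 7913 CPM in ganglion-like cells (11 or 12 of 12 with a UMI) against a median of 671 CPM in neuroblast-like cells (9 to 12 of 12, up to 1336 CPM apart from mouse 2 with 20990). The 3 mice with the most Phgdh in ganglion-like cells, 6, 8 and 7, were also the 3 with the most of these markers there. Free RNA was estimated at 11.9 to 65.3% of the UMIs of ganglion-like cells, and barcodes without cells held Phgdh at 46.5 to 198 CPM. With free RNA subtracted, Phgdh was 21.8 ± 29.0 CPM in ganglion-like cells, with 4 of 10 mice at 0, and 2.42 ± 2.91 CPM in neuroblast-like cells, and too few UMIs were left for the test. The part of Schwann and free RNA in this difference was not tested further.

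Between neuroblast-like and Schwann-like cells, 68.5% of 5527 genes passed, 35.9% higher and 32.6% lower in neuroblast-like cells. Of the 5 members tested, 2 were higher and 3 lower. Phgdh fell by 7.15 on the log2 scale (SE 0.24, FDR 6.7e-15) and Psph fell by 2.93 (SE 0.17, FDR 6.7e-12), both in 10 of 10 mice. Psat1, the step between them, differed far less: it fell by 0.67 (SE 0.17, FDR 0.0017) and was lower in 7 of 10 mice. Shmt1 was higher in 10 of 10 mice (FDR 8.0e-09), with 772 against 6 UMIs and a pooled ratio of 23.4 (10.7 to 63.9). Here too it passed the filter through neuroblast-like cells alone. Phgdh passed it through Schwann-like cells, apart from mouse 2, so its call could hardly go the other way either. Mthfd2 was higher by 1.17 (SE 0.19, FDR 1.2e-05), also in 10 of 10 mice. The Psat1 difference no longer passed with cells filtered more strictly (500 genes or more, 5% mitochondrial UMIs or less) (-0.33, FDR 0.125). DESeq2 size factors raised the median of all genes by 0.17 (from 0.07 to 0.24), and Psat1 was then at -0.50 (FDR 0.0152). With clusters from log-normalized counts that median moved by -0.32, and the share of calls that were higher in neuroblast-like cells went from 52.4% to 38.5%.

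Ganglion-like and Schwann-like cells differed in 70.7% of 3171 genes, 38.8% higher and 31.9% lower in ganglion-like cells. All 4 members tested passed. Phgdh (-4.95, SE 0.25, FDR 3.1e-14), Psat1 (-4.05, SE 0.24, FDR 4.1e-13) and Psph (-2.85, SE 0.23, FDR 9.8e-11) were lower in ganglion-like cells in 10 of 10 mice. All 3 serine synthesis genes were thus lower in ganglion-like than in Schwann-like cells. They passed the filter through Schwann-like cells, so calls in the other direction were hardly possible. Mthfd2 was higher in ganglion-like cells by 0.76 (SE 0.22, FDR 0.0041) in 9 of 10 mice, and at 0.68 (FDR 0.0616) with free RNA subtracted.

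Endothelial-like sums were small, and no member passed the filter on low counts against neuroblast-like cells, where 64.3% of 2115 genes passed. Without the filter 36.2% of 18499 genes passed, 23.1% higher and 13.1% lower in neuroblast-like cells, and 3 members were among the higher: Mthfd2, Shmt1 and Psat1. Their pooled counts were 1797 against 2 UMIs for Mthfd2, 772 against 1 for Shmt1 and 1351 against 9 for Psat1, with a ratio of 7.37 for Psat1 (3.87 to 16.1). The other 5 did not pass there. DESeq2 size factors raised the share of calls that were higher in this comparison from 49.7% to 62.2%.

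**Figure D2:**
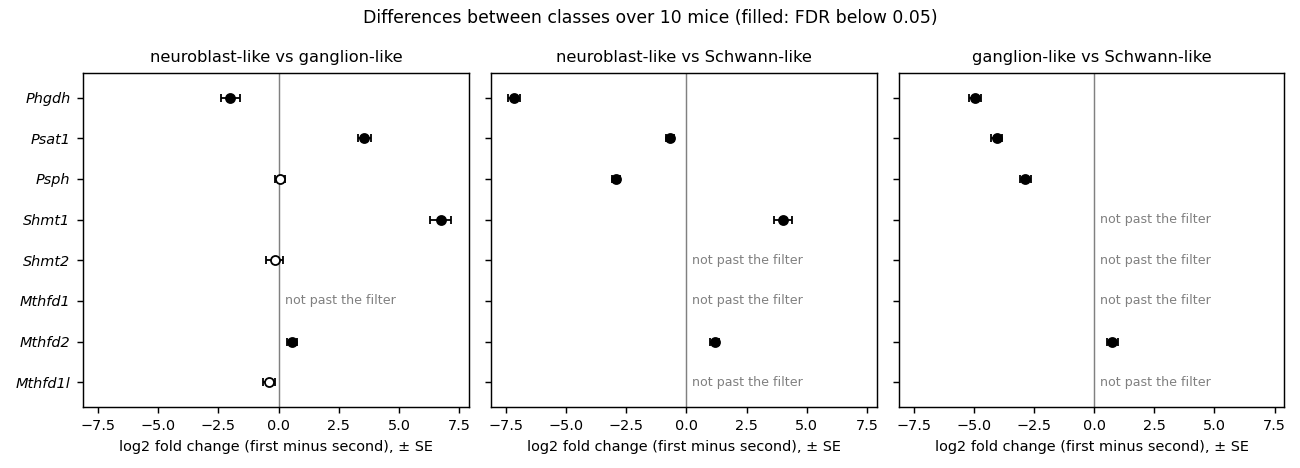
Log2 fold change of each gene between pairs of classes over the 10 Th-MYCN+/- mice of 3 weeks, with its standard error. Filled points passed FDR 0.05 and open points did not, and genes with too few UMIs for the test are marked as not past the filter. Phgdh at -7.15 between neuroblast-like and Schwann-like cells and Shmt1 at 6.73 between neuroblast-like and ganglion-like cells are the most distant points. The Shmt1 point rests on only 3 UMIs in ganglion-like cells.

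Genes around the pathway were counted in 7 lists of 59 genes. Between neuroblast-like and ganglion-like cells, 33 were tested, 12 were higher and 10 lower, a split close to that of all genes tested (34.8% higher and 31.5% lower), and the median log2 fold change was 0.31 against 0.08 over all genes. The counts of single lists below rest on few genes and are given as a description, with no test of the list. Purine synthesis, a pathway that as a whole takes up carbon units from folate, had 4 higher and 0 lower of 6 genes tested (7 in the list), among them Gart (2.03, every mouse) and Adsl (1.11). Of the 14 other folate genes 5 were tested and 2 were higher, among them Tyms, thymidylate synthase (4.68, every mouse). Serine carriers gave 3 higher and 1 lower of 4 tested (8 in the list), with the plasma membrane carrier Slc38a1 at 2.06, the mitochondrial serine carrier Sfxn1 at 1.87 and Sfxn3 at -2.45. Of the genes that put serine into lipids or D-serine 5 of 7 were lower and 0 higher (median -0.89), among them phosphatidylserine synthase Ptdss1 (-0.89, every mouse) and Serinc1 (-0.96). Methionine cycle genes split 2 and 2 of 4 tested (Mat2a 0.84, Ahcyl2 -0.75), glycine cleavage had 1 higher of 2 (Dld 0.86), and Atf4 with its known targets had 2 lower of 5 (Ddit4 -0.88, Atf5 -0.61).

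Against Schwann-like cells, 10 of 31 tested genes of these lists were higher in neuroblast-like cells and 15 lower, beside 35.9% higher and 32.6% lower over all genes tested, with a median of -0.38 against 0.07. All 5 purine synthesis genes tested were higher, with Prps1 at 1.27 and Atic at 1.69 in every mouse, and all 6 lipid genes tested were lower, with Serinc3 at -2.21. Carriers divided sharply, Slc1a5, a neutral amino acid carrier, at -5.72 and Slc38a1 at 4.64, both in every mouse. Tyms was higher (3.20) and Ggh, a lysosomal folate hydrolase, was lower (-3.04). Among Atf4 and its targets, 1 was higher, asparagine synthetase Asns (3.15, every mouse), and 2 were lower, including Ddit4 (-4.10). Ganglion-like against Schwann-like cells had 3 higher and 9 lower of 17 tested (38.8% higher and 31.9% lower over all genes), with Slc1a5 at -4.19 and Ggh at -2.91 in every mouse, and neuroblast-like against endothelial-like cells 6 higher and 5 lower of 14 (32% higher and 32.3% lower over all genes), with Sfxn1 at 2.75 in every mouse.

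**Figure D3:**
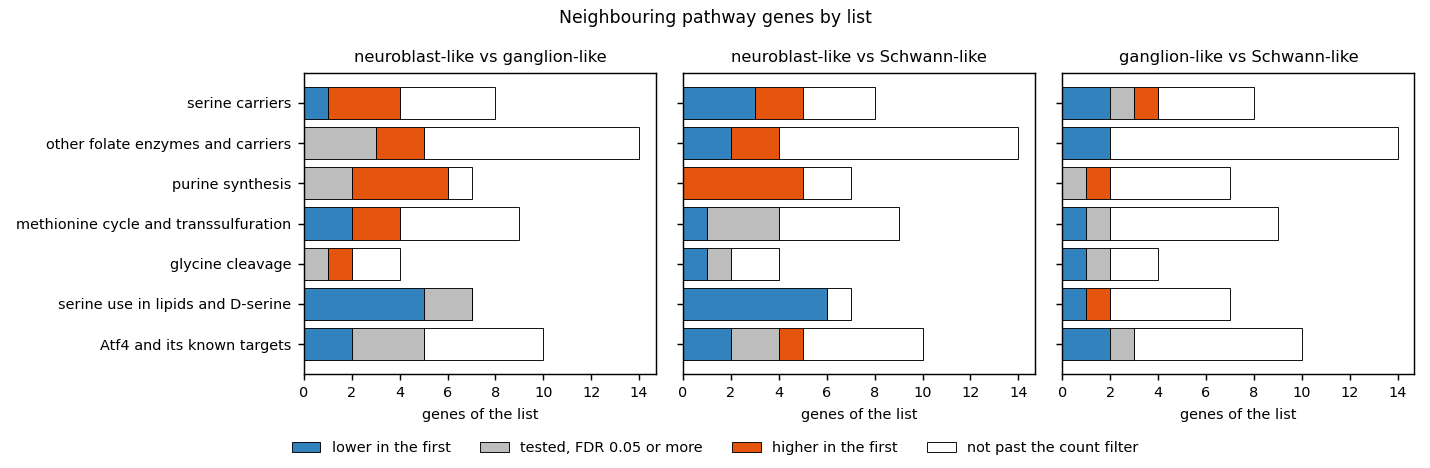
Number of genes of each neighbouring list that were lower (blue), higher (orange), tested without passing FDR 0.05 (grey) or not past the count filter (white) in the first class of each pair. Purine synthesis has 4 and 5 orange genes and no blue gene in the first and second panel, and the lipid list has 5 and 6 blue genes and no orange one.

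Within the neuroblast-like class the genes were then set against proliferation, since folate enzymes serve nucleotide synthesis. Cells of at least 1000 UMIs were thinned to 1000 and ranked within each mouse by the UMIs of 96 cell cycle genes, divided into an upper, a middle and a lower group of equal size, and the upper and lower groups were compared in 9 mice (mouse 2 had too few cells). In this comparison 27.1% of 1764 genes passed, 14.7% higher and 12.4% lower in the upper group. Only 2 members passed the filter, and neither passed the test: Psat1 at 0.81 (SE 0.32, FDR 0.0585, higher in 8 of 9 mice) and Mthfd2 at 0.46 (SE 0.32, FDR 0.316, higher in 8 of 9 mice). Of the pathway lists, Tyms (2.21), Prps1 (1.08) and Paics (0.56) were higher in the upper group, and 0 of 10 tested were lower.

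All UMIs of the same cells hold more of these genes, and this alternative, chosen after seeing the data, let Shmt1 and Psph through the filter (34.5% of 5474 genes passed, 17.7% higher and 16.8% lower). Shmt1 had 39.6, 79.8 and 102 CPM (lowest, median, highest) in the upper group and 17.4, 35.2 and 47.0 CPM in the lower group. The 2 ranges overlapped, but each mouse was higher in its upper group, by 1.12 on the log2 scale (SE 0.17, FDR 8.9e-05, 9 of 9 mice). Psat1 was higher by 0.98 (SE 0.26, FDR 0.0081, 8 of 9 mice), and Psph (0.43, FDR 0.0836) and Mthfd2 (0.57, FDR 0.123) did not pass. In the thinned cells Shmt1 had only 5 of 9 mice higher in the upper group and 2 lower, at 64.0 ± 23.8 against 47.1 ± 17.0 CPM. Cells of the upper group were deeper, with a median of 3637 to 6687 UMIs per mouse against 3056 to 5367 in the lower group, and the part of this depth in the result was not tested beyond the thinning.

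Single cells with very high counts mattered here. In the lower group Mthfd2 ran from 39.6 to 941 CPM in thinned cells, and the highest value was mouse 7, whose neuroblast-like cells held the cell of 120 UMIs. Without that mouse Mthfd2 was higher in the upper group by 0.93 (FDR 0.0024). With UMIs per gene and cell capped, 34.2% of 1758 genes passed (17.3% higher, 16.9% lower), and Psat1 was at 1.09 (FDR 0.00033) and Mthfd2 at 0.78 (FDR 0.0034). Capped levels of Mthfd2 were 148 ± 35 CPM in the upper and 86.8 ± 21.5 CPM in the lower group, and those of Psat1 130 ± 40 and 54.9 ± 34.9 CPM (SD, n = 9).

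**Figure D4:**
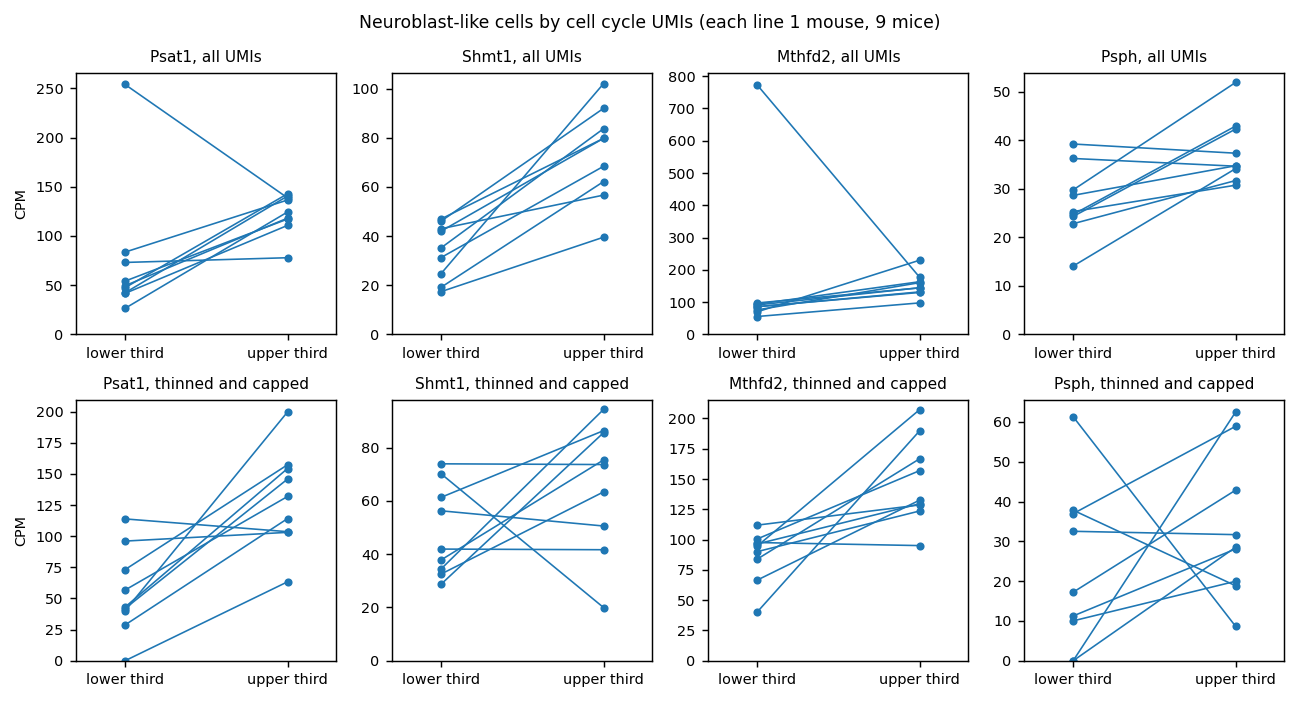
Levels of Psat1, Shmt1, Mthfd2 and Psph in neuroblast-like cells of the lower and upper group of cell cycle UMIs, in CPM, each line 1 of 9 mice. The upper row sums all UMIs, where Shmt1 is higher in the upper group in 9 of 9 mice, and the lower row sums cells thinned to 1000 UMIs with counts capped. The line that starts at 773 CPM of Mthfd2 is mouse 7.

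Both neuroblast-like clusters were also compared as a description, since proliferation genes led 1 of them. Pooled over the 10 mice, Shmt1 was at 70.7 CPM (exact Poisson interval 65.1 to 76.7) in the cluster led by mitotic genes and at 38.0 (32.8 to 43.8) in the cluster led by Cartpt. Mthfd2 was at 150 and 113 CPM, Psat1 at 99.2 and 108 CPM. The 2 large Schwann-like clusters had 844 and 899 CPM of Phgdh. The shallow unnamed cluster, which lay outside the 4 classes, had Shmt1 at 56.6 CPM and Phgdh at 7.26 CPM, close to the neuroblast-like levels and far from the Schwann-like ones. Its Psat1, at 57.6 CPM (47.4 to 69.4), lay below both neuroblast-like clusters. So did its H-MYCN, at 191 CPM against 284 and 407 CPM. No marker of any list was enriched in it. This cluster was 2.43% of wild-type cells, 8.90 to 34.2% of cells in the 10 mice and 12.1% at 6 weeks, and its part in the neuroblast-like levels was tried as an alternative chosen after seeing the data.

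The spread of counts over cells was uneven for 3 genes. Psat1 had 61 UMIs in 1 neuroblast-like cell of mouse 8 and 59 in 1 of mouse 9, the 2 mice with its highest levels (145 and 162 CPM). Mthfd2 had 65 of its 290 UMIs in 1 neuroblast-like cell of mouse 8, beside the 120 in mouse 7. Shmt2 had 26 of 35 UMIs in 1 ganglion-like cell of mouse 9. The pattern was not particular to these genes: of 2047 genes with a mean of 0.3 to 1.2 UMIs per neuroblast-like cell, 670 (32.7%) had a cell with at least 50 UMIs. With the cap, Mthfd2 was at 117 ± 34 and Psat1 at 93.2 ± 13.8 CPM in neuroblast-like cells (SD, n = 10).

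**Figure D5:**
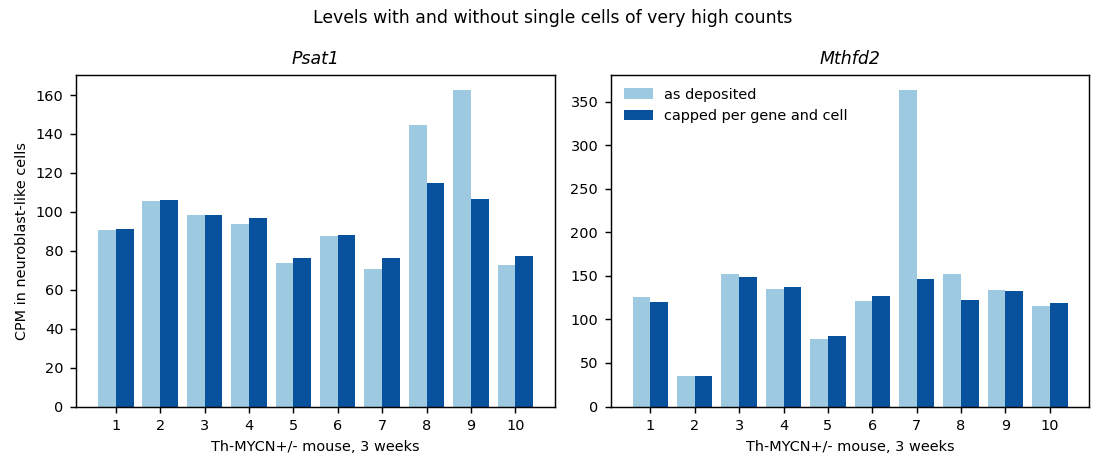
Level of Psat1 and Mthfd2 in neuroblast-like cells of each Th-MYCN+/- mouse of 3 weeks, in CPM, as deposited and with the UMIs per gene and cell capped at the 99th percentile of the class. Mouse 7 falls from 363 CPM of Mthfd2 to the level of the other mice, and mice 8 and 9 fall in Psat1.

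Whether the 8 genes went with the transgene was asked in 2 ways. First, neuroblast-like cells thinned to 1000 UMIs were split by the presence of an H-MYCN UMI, in 9 mice. No gene of 2067 passed (0%), with 126 at an unadjusted p below 0.05 by edgeR, and DESeq2 called 0 with 70 at an unadjusted p below 0.05. Psat1 was at -0.13 (SE 0.24, FDR 0.97) and Mthfd2 at -0.25 (SE 0.23, FDR 0.88). With all UMIs, 0.252% of 5944 genes passed (0.0336% higher and 0.219% lower in cells with it) and none of the members did, Shmt1 being at 0.25 (SE 0.13, FDR 0.58) and Psph at -0.21 (SE 0.20, FDR 0.79). Thinned Shmt1, which had too few UMIs for the test, was 84.6 ± 26.3 CPM in cells with and 51.2 ± 12.9 CPM in cells without an H-MYCN UMI, higher with it in 8 of 9 mice and with overlapping ranges. A cell without an H-MYCN UMI at this depth may still carry its transcript.

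Second, the levels in neuroblast-like cells were related to the H-MYCN level over the 10 mice, which ran over 105, 298 and 553 CPM. Of 8 relations, the highest was Mthfd1 with Pearson's r = 0.63 (permutation p = 0.0456, adjusted p = 0.365) and Spearman's rho = 0.67 (permutation p = 0.0381, adjusted p = 0.305), and r was 0.50 without mice 4 and 8, the farthest from the median of H-MYCN. Mouse 2 held 0 UMIs of Mthfd1 in these cells. With UMIs capped, r of Mthfd1 was 0.61 over the 10 mice and 0.32 without mice 2 and 4. Psph (-0.22 and 0.81), Shmt1 (0.34 and 0.84), Psat1 (0.36 and 0.70), Phgdh (-0.48 and 0.08) and Shmt2 (-0.51 and 0.12) rose in that step. Mthfd2 (0.56 and 0.24) and Mthfd1l (0.43 and 0.36) fell in it, as Mthfd1 did. None of the 8 relations passed after adjustment in the main design. At clustering resolution 1.0 the neuroblast-like class held 3438 cells in place of 3006 and was made up differently. It took in a shallow cluster of 1237 cells (median 443 UMIs). A deep cluster of 892 cells (median 5420 UMIs) led by proliferation genes was left unnamed. In that class Spearman's rho passed at adjusted p = 0.0346 (permutation test, n = 10) for Psat1 (0.82), Mthfd1 (0.78), Mthfd1l (0.76) and Mthfd2 (0.75), while no Pearson's r did (lowest adjusted p = 0.107). Shmt1 had r = 0.34 (permutation p = 0.342, adjusted p = 0.456) and rho = 0.24 (permutation p = 0.515, adjusted p = 0.612), and r = 0.77 without mice 4 and 8. Phgdh had r = -0.47 in the main design and -0.48 to 0.38 over the alternatives. Its highest neuroblast-like level was in mouse 2, from 2 UMIs in a sum with an estimated 71.5% free RNA. That mouse had the lowest H-MYCN level, at 105.48 CPM, barely below the next mouse at 105.60 CPM.

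The 3 conditions were compared by value alone. Of 24 levels in the wild-type mouse (8 genes in 3 classes), 22 lay within the range of the 10 Th-MYCN+/- mice of 3 weeks. Phgdh was below it in ganglion-like cells, at 7.22 CPM from 2 UMIs (exact Poisson interval 0.87 to 26.1), and Mthfd2 above it in endothelial-like cells, at 30.8 CPM from 2 UMIs (3.73 to 111), so both intervals reach into the range. In Schwann-like cells the wild-type mouse had 717 CPM of Phgdh (613 to 833), 140 of Psat1 (96.3 to 197) and 263 of Psph (202 to 337), each among the values of the 10 mice. These 3 intervals cover counting error only, and 1 mouse gives no test against the 10.

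Of 32 levels in the 6-week-old mouse, 29 lay within the range and 3 below it. Phgdh was at 5.93 CPM (2.17 to 12.9) in ganglion-like cells, where the lowest of the 10 mice had 15.0. Psat1 was at 83.5 CPM (59.95 to 113) in Schwann-like cells, where the lowest mouse had 101, and Shmt2 at 8.15 CPM (2.22 to 20.9), where the lowest had 8.63. Only the interval of Phgdh stayed outside the range. In neuroblast-like cells of this mouse Psat1 was at 111 CPM (97.8 to 126), Mthfd2 at 122 (108 to 138), Shmt1 at 37.6 (30.1 to 46.5) and Phgdh at 4.43 (2.12 to 8.14). Shmt1 was higher than this in 8 of the 10 mice of 3 weeks. Age, tumor and library cannot be told apart with 1 mouse.

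The smaller classes were pooled over the 10 mice. Among 215 macrophage-like cells, 5 UMIs of Phgdh gave 14.6 CPM (4.75 to 34.1) and 6 UMIs of Mthfd2 17.6 CPM (6.44 to 38.2). In 92 fibroblast-like cells, 6 UMIs of Phgdh gave 75.5 CPM (27.7 to 164), and in 121 myofibroblast-like cells there was none, while 7 UMIs of Psph gave 67.5 CPM (27.1 to 139). Shmt1 had 1 UMI in macrophage-like cells and 0 in fibroblast-like, myofibroblast-like and NKT-like cells. Counts this small set no order between these classes.

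Genes with the most similar pattern were sought over the 44 sums of a mouse and a class among 6560 genes, by Pearson's r of log2 CPM. Phgdh was closest to Plekhb1 (0.95), Atp1b2 (0.95) and Postn (0.94), and Psph to Ptprz1 (0.89), Plekhb1 (0.88) and Insc (0.88). Psat1 was closest to Mdk (0.89), B9d1 (0.87) and H3f3b (0.85). Shmt1 was closest to Top2a (0.97), a topoisomerase of dividing cells, Kcnip1 (0.96) and Fbxo5 (0.96), and Mthfd2 to Tuba1a (0.89), Prpsap2 (0.88) and Slc39a6 (0.87). The best partners of Shmt2 (Hibch, 0.65), Mthfd1 (Copb2, 0.69) and Mthfd1l (Syt17, 0.74) were less close. The sums share libraries and cell classes, so these values describe the pattern and carry no p.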

How the data were processed

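Per the labels and the file headers, the authors sequenced Chromium 3′ libraries of 12 mice, and Cell Ranger 3.0.2 with build mm10 gave the deposited counts, which are raw UMIs per gene and barcode. No annotation release was named in the labels or headers. Cells were called with a re-implementation of EmptyDrops (barcodes of at most 100 UMIs as ambient, 10000 draws, FDR 0.01) and kept with at least 200 genes, at most 10% mitochondrial and at most 60% ribosomal UMIs. They were clustered with Seurat 5.3.0 and sctransform 0.4.2 at resolution 0.5, leaving out the 8 genes, the pathway genes and H-MYCN. A cluster was named when at least 50% of a marker list (3 or more markers) was enriched. Scrublet marked 52 cells (0.435%), and whether it found most doublets was not tested. No doublets were removed, and an alternative dropped the highest 5% of scores.

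Mice, not cells, were the replicates. UMIs were summed per mouse and class (at least 5 cells) and compared with edgeR 4.0.16 (filterByExpr, TMM, quasi-likelihood test, mouse as a block, Benjamini-Hochberg), after a test on simulated data. DESeq2 1.42.0 was an alternative. Both arms of a comparison came from the same animal, and their deviations correlated by -0.00605 to 0.280 between neuroblast-like and ganglion-like cells and by 0.0871 to 0.573 between cell cycle ranges. CPM are UMIs of a gene divided by the UMIs of the summed class and multiplied by 1e6. The similarity of patterns used log2(CPM + 10). Python 3.11.15, scipy 1.17.1 and R 4.3.3 were used.

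The 8 genes and the lists were chosen with earlier results of these data known. Pathway genes were named when they passed FDR 0.05 in 1 direction in all mice, or as the 2 with the largest change of their list. Capped UMIs, all UMIs of the same cells, the shallow cluster counted as neuroblast-like and levels without mouse 2 were alternatives chosen after seeing the data.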

Additional observations from a re-analysis of the deposited data

Results flagged for a closer look

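The flag used here has a chance rate of about 1 in 20 for normal values of equal precision, which these sparse counts are not. In 12 of 32 groups of 10 mice, 1 mouse lay far from the nearest other mouse relative to the range of the group, a share that cannot be set against that rate. Of these, 6 were mouse 2, whose neuroblast-like and Schwann-like sums were small: Phgdh (70.3 CPM), Psph (70.3 CPM) and Shmt2 (70.3 CPM) in neuroblast-like cells rested on 2 UMIs each, Phgdh in Schwann-like cells (1773 CPM) on 9 UMIs, Shmt2 in Schwann-like cells (394 CPM) on 2 UMIs, and Shmt1 in ganglion-like cells (1.48 CPM) on 3 UMIs.

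Mthfd2 in neuroblast-like cells was high in mouse 7 (363 CPM), with 120 of 185 UMIs in 1 cell, and Shmt2 in ganglion-like cells in mouse 9 (52.3 CPM), with 26 of 35 UMIs in 1 cell. Psat1 in ganglion-like cells was high in mouse 6 (27.3 CPM, 3 UMIs). The other 3 rested on 1 UMI each: Shmt1 in Schwann-like cells of mouse 8 (10.1 CPM), Shmt1 in endothelial-like cells of mouse 5 (8.41 CPM) and Mthfd1l in endothelial-like cells of mouse 3 (25.8 CPM).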

How the results depend on the processing

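No called fold change of the 8 genes reversed under the alternatives run: 462 values kept their side of the threshold, 8 gained a call and 7 lost one. Of the levels, 351 moved by less than 1 SD, and Psat1 in ganglion-like cells went to 0 with free RNA subtracted. All 72 recomputed Pearson relations to H-MYCN kept their side of the threshold, and 4 Spearman relations passed it at resolution 1.0 alone (adjusted p = 0.0346 each, permutation test). Mthfd2 between neuroblast-like and ganglion-like cells also lost its call at resolution 1.0 (0.35, FDR 0.135), and Psat1 between neuroblast-like and Schwann-like cells without the count filter (-0.35, FDR 0.14). All results at resolution 1.0 rest on a neuroblast-like class made up differently, with shallow cells taken in and deep proliferating cells left out. Phgdh between neuroblast-like and ganglion-like cells had too few UMIs for the test with free RNA subtracted, at resolution 1.0 and with the highest Scrublet scores removed. Without the filter on low counts the calls rose to 7604, 7806, 6888 and 6699 for neuroblast-like against ganglion-like, neuroblast-like against Schwann-like, ganglion-like against Schwann-like and neuroblast-like against endothelial-like cells, 846 for the cell cycle ranges and 27 for the H-MYCN split, since more genes were tested. The endothelial comparison called 2596 with stricter cells, and 1176 to 2616 when 1 mouse was left out (2616 without mouse 2). The cell cycle ranges, 478 in the main design, gave 308 at resolution 1.0, 216 after thinning to 500 UMIs and 1888 with all UMIs. Without the replicate block they gave 299, and neuroblast-like against ganglion-like cells 4866. The pairing of arms from 1 mouse changed no call of the 8 genes. The H-MYCN split, 0 in the main design, gave 1 with the 8 genes kept in clustering, 1 at resolution 0.2, 1 with the Scrublet scores, 4 with the shallow cluster, 15 with all UMIs, and 0 to 1 when 1 mouse was left out (1 without mouse 8). Unless stated, the cause was not tested. Low counts limit Mthfd1 outside neuroblast-like cells, Mthfd1l in Schwann-like cells and all 8 genes in endothelial-like cells. They also limit how well the size of the Shmt1 differences to ganglion-like and Schwann-like cells is known.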
